A study of Mus musculus with 4 samples.

Results

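The 9 genes described here encode caspases and inhibitors of apoptosis proteins (IAPs): Birc2, Birc3, Casp1, Casp4 and Casp12 on mouse chromosome 9, and Xiap, Birc5, Casp8 and Casp9 on other chromosomes. They were chosen by name, with earlier results of these data known, out of 22367 protein-coding genes with a counted promoter. The measurement was chromatin immunoprecipitation sequencing (ChIP-seq) of native chromatin, digested to mononucleosomes with MNase, with an antibody labelled only H3K4, so the methylation state that it read is not stated. The libraries came from PA1-KO and PA1-WT B cells, 1 library of each. Both came from spleen B cells of mice aged 6 to 14 weeks, from which cells bearing CD43 had been removed, and were kept for 2 days in medium containing LPS at 25 µg/ml. The protocol also names a second stimulus, which is either IL-4 at 5 ng/ml or an anti-IgD antibody on dextran at 2.5 ng/ml; the labels of these libraries do not say which. They also do not say how PA1 was deleted or in which cells, or how many mice gave each library. The other 2 of the 4 samples of the series were not analysed here.

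PA1 is a partner of PTIP, and both are found with the MLL3 and MLL4 enzymes, which methylate lysine 4 of histone H3. Methylation of this residue marks active and poised promoters and enhancers. Caspases are proteases that carry out cell death and inflammation. Initiator caspases such as caspase-8 and caspase-9 start the death receptor and the mitochondrial route, while the inflammatory caspases encoded by Casp1 and Casp4 cut gasdermin D, and caspase-1 also matures interleukin-1β. IAPs hold BIR domains; XIAP blocks caspases directly, whereas cIAP1 (Birc2) and cIAP2 (Birc3) are ubiquitin ligases of tumour necrosis factor and CD40 signalling in B cells. Survivin (Birc5) is the IAP of dividing cells, in which it serves the chromosomal passenger complex.

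Signal was counted as reads within 1 kb of a transcription start site (TSS) and is given as normalized RPM, meaning reads per 1000000 nuclear reads after scaling between libraries. The libraries held 5259995 nuclear reads in PA1-KO and 5539475 in PA1-WT. Each genotype has 1 library, so no value here has a replicate and no test could be made. Each ratio of PA1-KO over PA1-WT has a 95% exact binomial interval that covers counting error only. A promoter with 50 or more reads in both libraries together was called higher or lower in PA1-KO where the change reached 1.5-fold and the interval left out 1. Of 12186 such promoters, 0.665% were higher and 4.90% lower in PA1-KO. At the promoter of PA1 itself, the libraries held 114 reads in PA1-KO and 261 in PA1-WT (ratio 0.498, interval 0.396 to 0.624); the labels do not place the deletion, so this does not check the knockout allele. The 8 B cell markers summed to 728 normalized RPM in PA1-KO and 684 in PA1-WT, and none passed the rule. T and NK cell markers summed to 82.3 RPM in PA1-KO and 68.3 RPM in PA1-WT, nearly all of it at Cd2. Cd2 held 407 reads in PA1-KO and 382 in PA1-WT. Each of the other T and NK cell markers held at most 7 reads in both libraries together. Monocyte, macrophage and neutrophil markers summed to 34.0 RPM in PA1-KO and 40.8 RPM in PA1-WT, most of it at Cd14 (118 reads in PA1-KO and 171 in PA1-WT, ratio 0.788). Itgam held 35 reads in PA1-KO and 27 in PA1-WT (1.48), and Emr1 held 9 in PA1-KO and 25 in PA1-WT (0.411). The others held at most 5 reads in both libraries together, with Csf1r at 0. Dendritic cell markers summed to 40.4 RPM in PA1-KO and 77.3 RPM in PA1-WT, and both tested markers (Flt3 and Zbtb46) were lower. Of the other dendritic cell markers, Itgax held 2 reads in PA1-KO and 14 in PA1-WT. The part that other cells play in any ratio here was not tested, and fewer cells that carry a mark cannot be told apart from less of the mark per cell.

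The promoters on chromosome 9 differ in base composition. The 250 bases before each start are shown for the 4 of these genes that carried signal, read 5′ to 3′ on the strand of the gene from NCBIM37 (mm9). Starts are those of RefSeq (GRCm38.p6), located on this build by exact sequence match. Capitals mark the only motif found, an NF-kB motif (GGGA, any 4 bases, then CC); NF-kB is the transcription factor that LPS and CD40 signals activate.
Casp1 (chr9:5298267-5298516, plus strand): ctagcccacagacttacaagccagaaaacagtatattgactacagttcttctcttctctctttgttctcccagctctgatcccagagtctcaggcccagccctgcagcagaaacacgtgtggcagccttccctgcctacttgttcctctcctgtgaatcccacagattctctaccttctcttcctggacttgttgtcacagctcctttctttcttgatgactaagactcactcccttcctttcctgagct
Casp4 (chr9:5308599-5308848, plus strand): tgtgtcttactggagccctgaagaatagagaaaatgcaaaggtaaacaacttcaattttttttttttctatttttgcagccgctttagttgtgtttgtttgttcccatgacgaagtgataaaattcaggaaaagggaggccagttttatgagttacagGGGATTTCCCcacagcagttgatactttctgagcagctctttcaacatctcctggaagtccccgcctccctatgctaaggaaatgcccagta
Birc2 (chr9:7837058-7837307, minus strand): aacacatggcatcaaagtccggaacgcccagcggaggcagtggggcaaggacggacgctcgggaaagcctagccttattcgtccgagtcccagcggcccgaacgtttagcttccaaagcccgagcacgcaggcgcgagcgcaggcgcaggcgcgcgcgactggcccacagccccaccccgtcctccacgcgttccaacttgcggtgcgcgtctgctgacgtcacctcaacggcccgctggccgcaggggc
Birc3 (chr9:7873171-7873420, minus strand): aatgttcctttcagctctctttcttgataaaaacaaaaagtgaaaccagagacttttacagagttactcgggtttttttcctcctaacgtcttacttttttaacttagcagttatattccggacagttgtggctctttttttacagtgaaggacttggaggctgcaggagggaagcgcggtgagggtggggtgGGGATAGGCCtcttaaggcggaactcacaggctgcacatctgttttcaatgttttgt
Casp4 held 1 match, GGGATTTCCC, from 92 to 83 bp before the start, and Birc3 held 1, GGGATAGGCC, from 57 to 48 bp before it. No match lay in the Casp1 or Birc2 window. The motif, searched on both strands in windows of the same length, occurred in 23.9% of the 12186 promoters. Interferon response (TTTC, any 2 bases, then TTTC; 2.88% of promoters), STAT (TTCNNNGAA, 5.32%) and TATA box (TATAAA, 4.72%) motifs were absent from these 4 windows. The CpG count was 1 at Casp1, 3 at Casp4, 6 at Birc3 and 31 at Birc2, against a median of 18.0 over all tested promoters.

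Of the inflammatory caspases, Casp4 and Casp1 were called higher in PA1-KO, and Casp12 carried almost no signal in either library. The Casp4 promoter, of the sensor for intracellular LPS, held 205 reads (40.6 normalized RPM) in PA1-KO and 123 reads (21.3 RPM) in PA1-WT. Its ratio was 1.90 (interval 1.51 to 2.40), rank 19 of 12186, and its annotated starts within 21 bp had ratios from 1.86 to 1.90. The Casp1 promoter, of the inflammasome protease, held 317 reads (62.7 RPM) in PA1-KO and 240 reads (41.6 RPM) in PA1-WT. Its ratio of 1.51 (interval 1.27 to 1.79, rank 93) lies at the 1.5-fold limit, and Casp1 was called higher in only 6 of 13 alternative settings (ratios 1.09 to 1.52). Casp4 was called higher in 11 of 13, with ratios of 1.48 with the GC trend over all promoters removed and 1.46 with GC and level trends removed, just under the limit. The next member below that limit was Casp9 at 1.22. The ratios of the Casp1 and Casp4 promoters could not be told apart by counting error (Casp1 over Casp4 0.792, interval 0.593 to 1.06). Casp12, the gene of a caspase of the endoplasmic reticulum, held 3 reads in PA1-KO and 5 in PA1-WT, lay in no island of enrichment and was not compared. Its window was not short of mappable sequence, since 92.0% of its 25-base words were unique in the genome, against 95.8% at Casp1 and 89.2% at Casp4.

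Most of the added reads at both caspase genes lay on the transcribed side of the start. At Casp4, the first 1 kb of the gene held 183 reads in PA1-KO and 109 in PA1-WT (ratio 1.92), and the stretch from 1 to 3 kb held 124 reads in PA1-KO and 74 in PA1-WT (1.91, 1.42 to 2.59). The 1 kb before the start held only 22 reads in PA1-KO and 14 in PA1-WT (1.79, 0.877 to 3.79). At Casp1, the first 1 kb of the gene held 264 reads in PA1-KO and 195 in PA1-WT (1.55, 1.28 to 1.87). From 1 to 3 kb it held 125 reads in PA1-KO and 92 in PA1-WT (1.55, 1.18 to 2.05), and the 1 kb before the start held 53 in PA1-KO and 45 in PA1-WT (1.34, 0.886 to 2.05). The highest 200 bp bin stood in the same place in both libraries, from 600 to 799 bp after the start of Casp1 (89 reads in PA1-KO and 66 in PA1-WT) and from 200 to 399 bp after that of Casp4 (60 reads in PA1-KO and 36 in PA1-WT). The profile thus differed in height, not in the place of its summit.

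**Figure D1:**
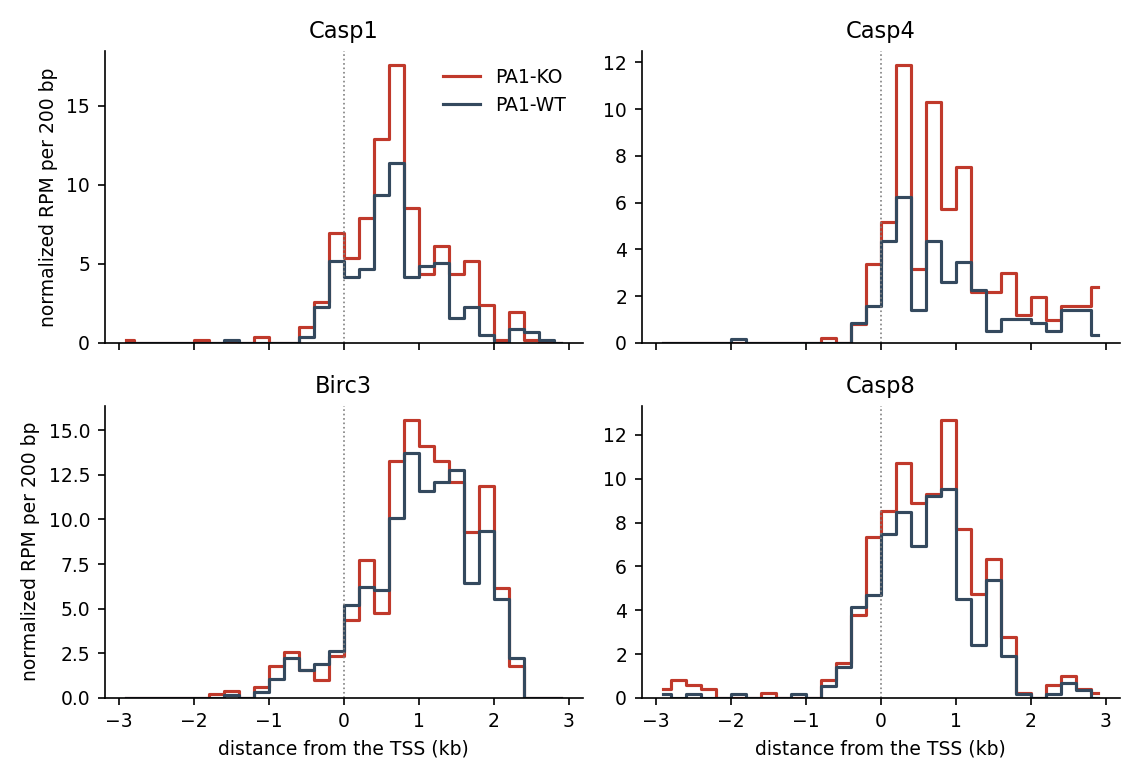
H3K4 signal (normalized RPM per 200 bp, vertical axis) by distance from the TSS in kb, with transcription to the right, at Casp1, Casp4, Birc3 and Casp8; red lines are PA1-KO and dark lines PA1-WT, 1 library each. At Casp1 and Casp4 the PA1-KO line stands above the PA1-WT line over most of the first 1 kb of the gene, while the lines of Birc3 (promoter ratio 1.09) run close together.

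Among the IAP genes, Birc2 had the highest promoter ratio of all members, and its value differed between annotated starts. Within 1 kb of the TSS given by GENCODE vM1, the annotation used for all genes, Birc2 held 137 reads (27.1 normalized RPM) in PA1-KO and 72 reads (12.5 RPM) in PA1-WT. The ratio was 2.17 (interval 1.62 to 2.93), rank 8 of 12186, at a low level (percentile 18.0 of tested promoters). This TSS lies 1802 bp and 1551 bp inside the gene from the RefSeq starts of Birc2, in a trough of the signal. Within 1 kb of the upstream RefSeq start the libraries held 372 reads (73.6 RPM) in PA1-KO and 380 reads (65.9 RPM) in PA1-WT, a ratio of 1.12 (0.966 to 1.29). At the other RefSeq start they held 406 reads in PA1-KO and 399 in PA1-WT (1.16, 1.01 to 1.34). The Birc2 promoter as RefSeq places it was therefore not called higher, and the ratio of 2.17 belongs to a stretch inside the gene. The start of C330006D17Rik, a gene annotated on the same strand, lies within a few bases of the upstream RefSeq start of Birc2. Its window held nearly the same reads (372 in PA1-KO and 379 in PA1-WT), so its ratio is not separate from that of Birc2 there.

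The Birc2 signal formed 1 island of 8800 bp, longer than 99.8% of all islands, with 1029 reads in PA1-KO and 811 in PA1-WT (ratio 1.45, interval 1.32 to 1.59). Its parts did not share that ratio. The summit, from 500 to 999 bp after the upstream RefSeq start, held 134 reads in each library, a ratio of 1.14 after scaling. In the trough from 1.5 to 2.5 kb, the 500 bp bins held 25 and 28 reads in PA1-KO, against 14 and 12 in PA1-WT. A lower summit followed, in which the bin from 4000 to 4499 bp held 98 reads in PA1-KO and 61 in PA1-WT (1.83, 1.32 to 2.57). In GENCODE vM1 this bin lies in intron 1 of Birc2, just past exon 1 (chr9:7833505-7835255). From 1 to 7.5 kb after the RefSeq start the libraries held 635 reads in PA1-KO and 419 in PA1-WT, a ratio of 1.73 (1.53 to 1.96). That ratio was 1.55 times (1.28 to 1.88) the ratio around the start. The downstream stretch ends close to the end of the island, so its limits follow these same reads. It had a GC content of 40.1% and the stretch around the start 49.4%. The part of base composition in the difference was not tested. Over all genes with 50 or more reads from 1 to 3 kb past the TSS, the median log2 ratio there was 0.20, and 0.46 under 40% GC. From 1 to 3 kb past its upstream RefSeq start, Birc2 had a log2 ratio of 1.15 at 37.8% GC.

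**Figure D2:**
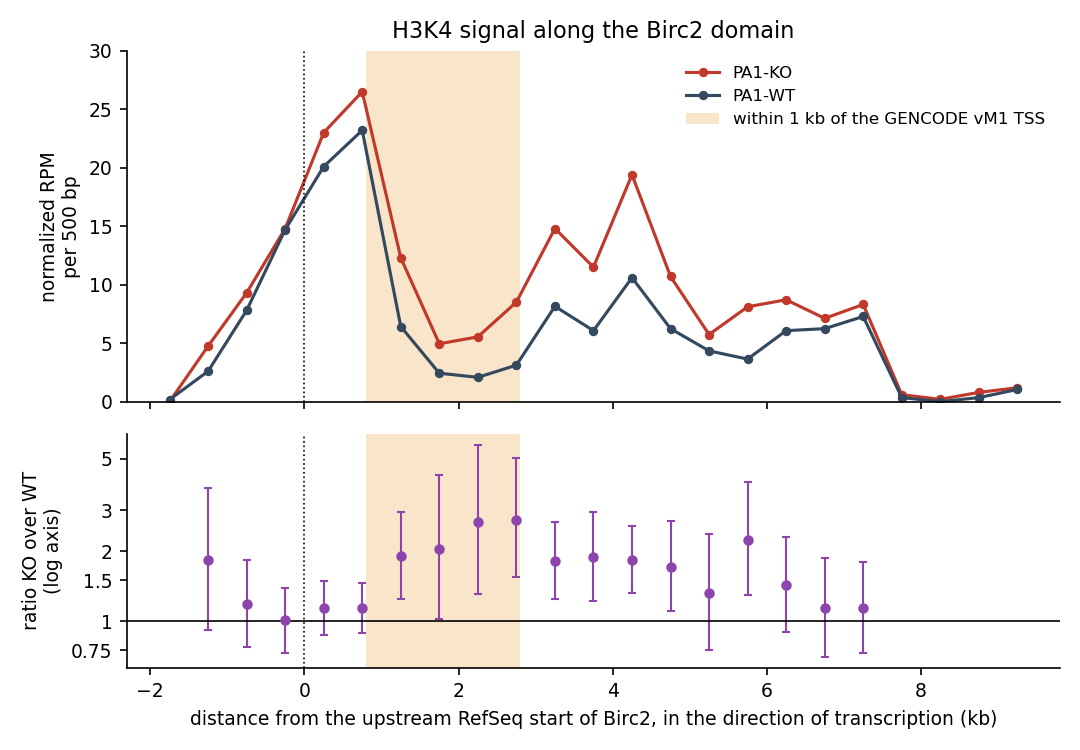
Upper panel, H3K4 signal at Birc2 in normalized RPM per 500 bp (PA1-KO red, PA1-WT dark, 1 library each); lower panel, ratio of PA1-KO over PA1-WT on a log axis with 95% counting intervals; the horizontal axis is the distance in kb from the upstream RefSeq start. The lines lie close together at the RefSeq start (ratio 1.12) and apart from 1 to 6 kb, and the shaded window around the GENCODE vM1 TSS covers the trough.

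Birc3, which lies next to Birc2 and encodes the closest relative of cIAP1, did not share its ratio. Its promoter held 278 reads (55.0 normalized RPM) in PA1-KO and 292 reads (50.6 RPM) in PA1-WT, a ratio of 1.09 (0.919 to 1.28). The window of Birc2 at its GENCODE vM1 TSS had a ratio 2.00 times that of Birc3 (1.42 to 2.82). At RefSeq starts the ratios were closer, 1.12 at the upstream start of Birc2 and 1.03 (0.830 to 1.28) at that of Birc3. Birc3 has 7 annotated starts within 329 bp, with ratios from 1.02 to 1.09, and a start 12531 bp further inside held 10 reads in PA1-KO and 12 in PA1-WT (0.951, 0.368 to 2.40). From 1 to 3 kb inside the gene Birc3 held 346 reads in PA1-KO and 347 in PA1-WT (1.14, 0.978 to 1.32). A separate island of 1200 bp further inside Birc3 held 59 reads in PA1-KO and 55 in PA1-WT (1.22, 0.833 to 1.80).

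None of the members on other chromosomes was called higher or lower. Casp8, of the initiator of the death receptor route, held 322 reads (63.7 normalized RPM) in PA1-KO and 303 reads (52.5 RPM) in PA1-WT, a ratio of 1.21 (1.03 to 1.42). Its upstream start, 7128 bp away, held 225 reads in PA1-KO and 241 in PA1-WT (1.07, 0.884 to 1.28). Casp9, of the initiator of the mitochondrial route, held 226 reads (44.7 RPM) in PA1-KO and 212 reads (36.8 RPM) in PA1-WT, a ratio of 1.22 with an interval from just above 1 to 1.47. At its upstream annotated starts, 232 bp and 134 bp away, the ratios of Casp9 were 1.20 (0.990 to 1.46) and 1.19 (0.981 to 1.44), with intervals that include 1. Xiap held 129 reads (25.5 RPM) in PA1-KO and 122 reads (21.2 RPM) in PA1-WT (1.21, 0.935 to 1.56), and its start 357 bp upstream held 128 in PA1-KO and 112 in PA1-WT (ratio 1.30, upper bound 1.70), as did a start 345 bp upstream. The 3 Xiap starts from 837 to 919 bp upstream had ratios from 1.20 to 1.22, and a start 2570 bp downstream held 17 reads in PA1-KO and 13 in PA1-WT (1.49, 0.683 to 3.34). Birc5 carried the most signal of all members, with 400 reads (79.2 RPM) in PA1-KO and 448 reads (77.7 RPM) in PA1-WT, at percentile 94.4 of tested promoters. Its ratio of 1.02 (0.888 to 1.17) was the closest to 1, and its other annotated starts, 68 bp and 71 bp away, had ratios of 1.01.

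**Figure D3:**
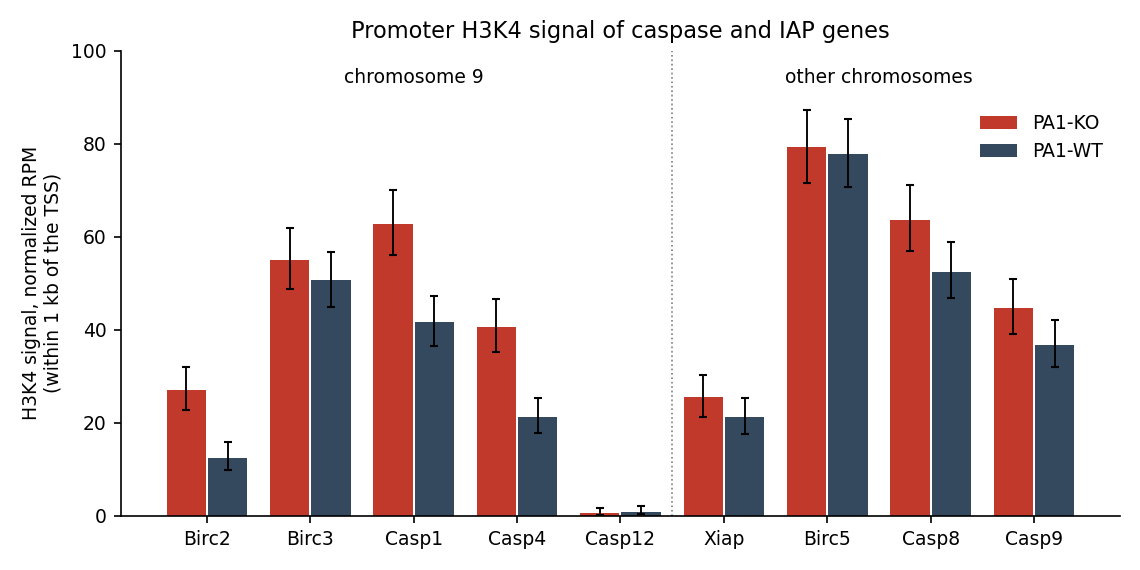
Promoter H3K4 signal in normalized RPM within 1 kb of the GENCODE vM1 TSS for the 9 genes, PA1-KO red and PA1-WT dark, 1 library each; bars start at 0 and error bars are 95% counting intervals. Birc2, Casp1 and Casp4 have separate intervals in PA1-KO and PA1-WT, Birc5 has the tallest bars and Casp12 is close to 0.

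In all, 3 of the 8 members compared were called higher (Birc2, Casp1 and Casp4) and 0 lower, against 0.665% higher among all promoters. The members were chosen with these ratios known, so nothing is read from that count. All 8 had a ratio above 1, as did 50.2% of all tested promoters, and the median log2 ratio of the 8 was 0.28 against 0.00 for all. With the libraries scaled to reads outside islands and promoters, which moves every log2 ratio by -0.31, the ratios of Xiap (0.974), Birc3 (0.877), Birc5 (0.823), Casp8 (0.979) and Casp9 (0.982) stood below 1. Under that scaling 17 of all promoters were higher and 2034 lower in PA1-KO, against 81 and 597 in the main scaling. Birc2 and Casp4 were still called higher, and Casp1 had a ratio of 1.22. Scaling to total nuclear reads moves log2 ratios by -0.12 and places Birc5 at 0.940.

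**Figure D4:**
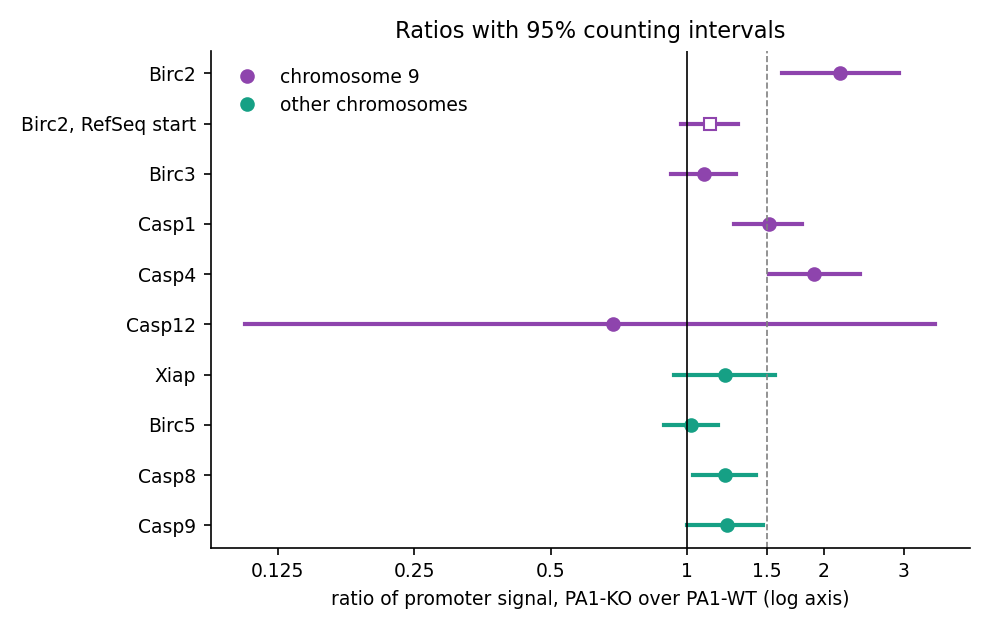
Ratio of promoter signal, PA1-KO over PA1-WT, on a log axis with 95% counting intervals, 1 row per gene; the dashed line marks 1.5-fold and the open square is Birc2 counted at its upstream RefSeq start. Birc2, Casp4 and Casp1 stand at or beyond the dashed line, Birc2 moves to 1.12 at the RefSeq start, and the Casp12 interval spans most of the axis.

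Summed over promoters, the 5 chromosome 9 members held 940 reads in PA1-KO and 732 in PA1-WT (ratio 1.47, interval 1.33 to 1.62), and the 4 others held 1077 in PA1-KO and 1085 in PA1-WT (1.13, 1.04 to 1.23). The first ratio was 1.29 times the other (1.14 to 1.47). Given by gene cluster, Casp1, Casp4 and Casp12 against the 4 others gave 1.44 (1.22 to 1.69), and Birc2 and Birc3 against them gave 1.15 (0.971 to 1.36). With Birc2 counted at its upstream RefSeq start the value was 1.14 (1.01 to 1.28). Leaving out 1 chromosome 9 member at a time gave values between 1.22 (without Casp4) and 1.52 (without Birc3). These sums weigh genes by their reads, and genes of a cluster are not replicates.

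Of the 8 members compared, those with the highest ratios also had the fewest G and C bases in the counted window. GC content was 35.1% at Birc2, 39.4% at Casp4 and 39.7% at Casp1, against 45.1% at Casp8 and 51.6% to 57.1% at Casp9, Birc3, Xiap and Birc5. Casp12, with almost no signal, had 39.1%. Over all promoters the ratio was lower at higher GC content, with a median log2 ratio of 0.27 under 45% GC, 0.04 from 50% to 55% and -0.29 at 65% or more. Of the 477 tested promoters under 45% GC, 9.64% were called higher. Promoters within 2.5 percentage points of the GC content of Birc2 had a median log2 ratio of 0.53 (n = 40), and Birc2 had 1.12. The same median was 0.34 for Casp4 (n = 121), which had 0.93, and 0.34 for Casp1 (n = 129), which had 0.59. With the GC trend over all promoters removed, the ratio was 1.54 (1.15 to 2.08) at Birc2, 1.48 (1.18 to 1.86) at Casp4 and 1.18 (0.993 to 1.40) at Casp1, so only Birc2, at its GENCODE vM1 TSS, was still called higher. Of all promoters, 0.304% were then higher. With that trend removed, the chromosome 9 members stood above the others by a log2 difference of 0.16, against 0.37 before. Level also moved with the ratio over all promoters: with the level trend removed 251 were higher and 156 lower, and with both trends removed 126 and 149.

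**Figure D5:**
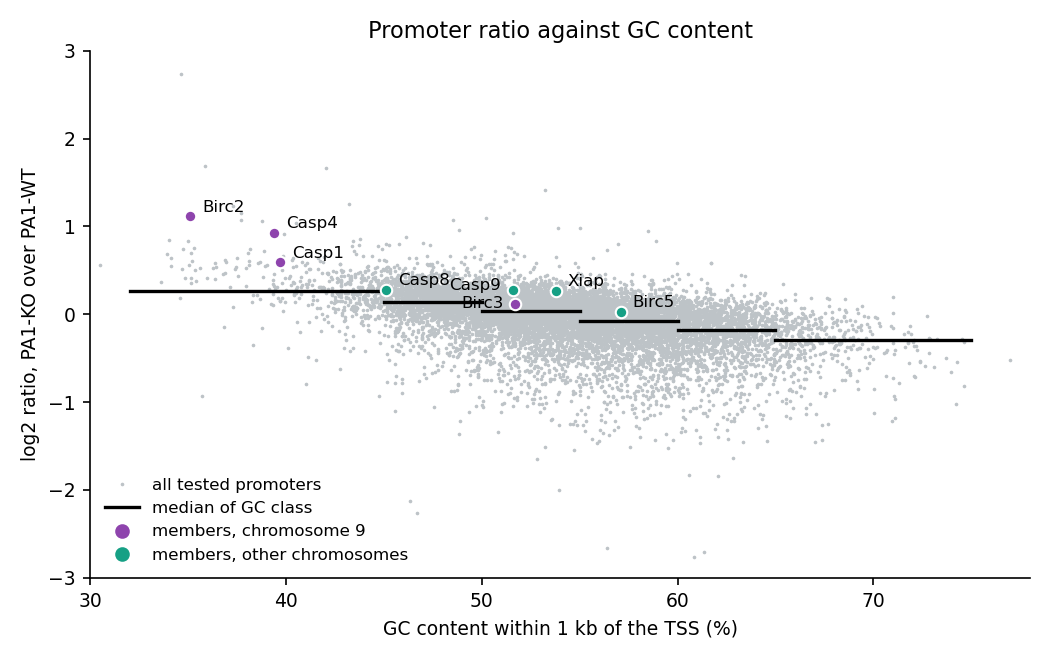
Log2 ratio of PA1-KO over PA1-WT against GC content (%) within 1 kb of the TSS for the 12186 tested promoters (grey), with the median of each GC class (black lines) and the 8 members compared (purple, chromosome 9; green, other chromosomes). The 3 members called higher lie at the low GC end, above the median of 0.27 of their class, and 3 grey points lie outside the axes.

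In the main scaling, the stretch from 1 to 3 kb after the TSS held more signal in PA1-KO at members on several chromosomes. Of the 7 members with 50 or more reads there, 5 were called higher, against 12.3% of 5326 genes and 27.7% of the 1125 genes whose stretch had under 40% GC. Casp8 held 120 reads (23.7 normalized RPM) in PA1-KO and 89 reads (15.4 RPM) in PA1-WT (ratio 1.54, 1.16 to 2.05). Xiap held 38 reads (7.52 RPM) in PA1-KO and 23 reads (3.99 RPM) in PA1-WT (1.89, 1.09 to 3.32). At both genes this stretch thus had a higher ratio than the promoter window, with intervals that overlap. Over all genes with 50 or more reads there the stretch was shifted the same way, with a median log2 ratio of 0.20, against 0.00 at tested promoters. Birc2, past its GENCODE vM1 TSS, held 305 reads in PA1-KO and 187 in PA1-WT (1.86, 1.55 to 2.25), and Casp1 and Casp4 are given above. Birc5 (1.29) and Birc3 (1.14) were below the limit. The GC content of the stretch was 36.1% at Casp1, 36.9% at Xiap, 38.1% at Casp4 and Casp8 and 41.0% at Birc2, but 43.3% at Birc5 and 48.8% at Birc3. Over all genes, those under 40% GC had a median log2 ratio of 0.46 there and those from 50% to 55% had -0.08. Scaling to reads outside islands and promoters moves these log2 ratios by -0.31 too, and this stretch was not recounted under it. Because the promoter and this stretch come from the same contrast, the count is a description only.

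Other genes around the chromosome 9 members did not pass the rule, but none near Casp1, Casp4 and Casp12 had enough reads to be compared. These caspase genes start from chr9:5298517 to chr9:5345476, and the tested neighbours from chr9:7184446 to chr9:8134294. Of 21 protein-coding genes from 500 kb before to 500 kb after them, 6 had 50 or more reads, and their ratios ran from 0.927 (9230110C19Rik) to 1.12 (C330006D17Rik). Dync2h1 (1.03), Dcun1d5 (1.07), AK129341 (1.07) and Tmem123 (1.09) lay between these. The GC content of the 6 was 48.3% to 53.9%, against 35.1% to 39.7% at Birc2, Casp4 and Casp1, so none was of like base composition. The window of C330006D17Rik is nearly that of the upstream RefSeq start of Birc2. The windows of Dync2h1 (TSS chr9:7184446) and Dcun1d5 (chr9:7184566) overlap, so the 6 windows are not separate promoters. Yap1, a transcriptional coactivator, held 22 reads in PA1-KO and 26 in PA1-WT (0.966), and the remaining 14 genes, among them matrix metalloproteinase genes, held at most 7 reads each. Of 11 islands around the members, those of Casp4 (333 reads in PA1-KO and 199 in PA1-WT, 1.91) and Casp1 (427 reads in PA1-KO and 322 in PA1-WT, 1.51) were called higher and 0 lower. Of all islands with 50 or more reads, a minimum that 2 of the 11 miss, 3.31% were higher and 5.05% lower. The share higher was 23.1% among islands under 40% GC, where that of Casp4 lies (39.0%), and 11.7% from 40% to 45% GC, where that of Casp1 lies (41.4%). Outside islands and promoters, the region from chr9:4200001-8900000 held 1654 reads in PA1-KO and 1365 in PA1-WT (1.38, 1.29 to 1.49), and the genome as a whole had a ratio of 1.24 outside them. Close to the caspase genes the background ratio was 1.23 (0.932 to 1.62) and close to Birc2 and Birc3 it was 1.13 (0.951 to 1.35), and both intervals include 1 and the value of the genome. Mismatches to the reference were counted as a measure of strain difference, as positions where all reads of 1 library and none of the other carried the same mismatch. The 10 Mb block of the chromosome 9 members had 0 such positions for PA1-KO and 0 for PA1-WT. The block of Casp9 had 0 such positions for PA1-KO and 48 for PA1-WT, and the part of strain in the Casp9 ratio was not tested.

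Among genes that act with these proteins, 1 passed the rule. Of 47 tested genes in 5 lists, 0 were higher and 1 was lower (0.665% and 4.90% of all promoters), with a median log2 ratio of -0.07 against 0.00 for all promoters. Among the other caspases and IAPs, 0 of 7 tested passed in either direction and the median was -0.14. Their ratios ran from 0.693 at Casp6, which held 99 reads in PA1-KO and 163 in PA1-WT, and 0.873 at Naip2, to 1.18 at Casp2. Of 10 genes of the mitochondrial route, Endog, which encodes a mitochondrial nuclease, was lower, with 98 reads in PA1-KO and 186 in PA1-WT (0.601, 0.466 to 0.772). The median of that list was -0.10. Dffa, the inhibitor of the DNase of apoptosis, was next lowest at 0.738, and Cycs (1.06), which encodes cytochrome c, and Aifm1 (1.08) were highest.

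In the death receptor route, 0 of 16 genes passed and the median log2 ratio was 0.03. The lowest ratios were 0.865 at Ripk3, a kinase of necroptosis, and 0.877 at Rnf31, a subunit of the linear ubiquitin ligase. The highest were 1.16 at Mlkl, the effector of necroptosis, and 1.20 at Tnfaip3, a brake on NF-kB. In the inflammasome route, which holds the partners of caspase-1, 0 of 11 tested genes passed and the median was -0.07. Aim2, a sensor of cytosolic DNA, came closest, with 176 reads in PA1-KO and 138 in PA1-WT (1.46, 1.16 to 1.83) at a GC content of 37.4%. Txnip followed at 1.36, and Nlrp1b (0.761) and Card9 (0.774) were lowest. The partners of survivin lay near 1, as Birc5 did, with Aurkb at 1.01, Incenp at 1.04 and Cdca8 at 1.13 (0 of 3 passed, median 0.05), and Aurkc had 0 reads.

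The promoters most like Casp4 and Birc2 in the shape of their signal did not have their ratios. Likeness was the Euclidean distance between shares of reads in 200 bp bins within 2 kb of the TSS with the libraries combined, so reads of both genotypes set the shape. GC content and level were not matched. Nearest to Casp4 were Vasn (distance 0.0959), Ifitm2 (0.107) and H2-DMb1 (0.108), against a median of 0.293 over all promoters. Their ratios were 0.697, 0.730 and 0.648. Vasn held only 22 reads in PA1-KO and 36 in PA1-WT, with an interval (0.391 to 1.22) that includes 1. H2-DMb1 was called lower, with 80 reads in PA1-KO and 141 in PA1-WT. Nearest to Birc2, at its GENCODE vM1 TSS, were Ddx25 (0.157), Plag1 (0.160) and Selplg (0.163), against a median of 0.413. Their ratios were 1.13, 0.868 and 1.10.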

How the data were processed

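The authors deposited 1 line per mapped read for the H3K4 libraries, with position, strand, a match descriptor and a score column that is 0 throughout, and no normalized value. Per the submitters' processing notes, SICER and mm9 were used; no source used here names the aligner. Each deposited read spans 25 bases and no position and strand repeats within a file, so duplicates were absent and strong sites are slightly compressed. Per the labels' protocols, libraries had 18 PCR cycles; no molecular identifiers are named, so reads may not be independent molecules.

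Read 5′ ends, shifted inwards by 75 bp, were counted within 1 kb of the GENCODE vM1 TSS with the most reads per protein-coding gene. Scaling used the trimmed mean of M values (trims of 30% and 5%; factor 0.923) over promoters with 50 or more reads. Islands were called on both libraries together (200 bp windows, Poisson p under 1e-05, gaps up to 200 bp, 20 or more reads). Trends were removed with lowess (fraction 0.3). RefSeq starts (GRCm38.p6) were placed on NCBIM37 by exact match of their promoter sequence. Python 3.11.15, numpy 2.4.6, scipy 1.17.1, pandas 2.3.3 and statsmodels 0.14.6 were used. The scaling, interval, call and trend steps were tested on simulated counts.

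Members, lists and tests were chosen with earlier results of these data known. Named were all members, their starts with 20 or more reads, neighbours with 20 or more reads, the 2 highest and 2 lowest tested genes per list with any that passed, and the 3 nearest profiles of Birc2 and Casp4. The value of 1 gene that this rule names is not reported here. Alternatives varied scaling, window, shift, start, read minimum, trends and depth.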

Additional observations from a re-analysis of the deposited data

How the results depend on the processing

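Counted at the RefSeq start with the most reads, an alternative chosen after seeing the data, Casp1 and Casp4 were the 2 members called higher, Birc2 had a ratio of 1.16, and the log2 difference between chromosome 9 and other members was 0.21 against 0.37. Of all promoters, 0.656% were higher in that setting. The count of members higher was 3 in the main setting, against 0.665% of all promoters. It became 1 with a 2 kb window (Casp4), 1 with the GC trend removed (Birc2) and 1 with GC and level trends removed (Birc2). The shares of all promoters called higher in these settings were 0.773%, 0.304% and 1.03%. The count of members was 2 (Birc2 and Casp4) with scaling to total nuclear reads (0.328% of all promoters) or to reads outside islands and promoters (0.140%). The same 2 were called with a minimum of 1 read (0.649%) or the level trend removed (2.06%). The log2 difference was 0.16 after removal of the GC trend, and also 0.16 after removal of the GC and level trends together; the cause was not tested. Among the 13 alternatives, Birc2 was called higher in 11 (ratios 1.16 to 2.54), Casp4 in 11 (1.46 to 2.01) and Casp1 in 6 (1.09 to 1.52). All 11 for Birc2 used its only GENCODE vM1 TSS, inside the gene from the RefSeq starts. Birc2 was not called higher with the 2 kb window (1.45), which reaches the RefSeq starts, or at the RefSeq start (1.16). No member was called lower in any setting in which it was compared; Casp12 was compared only with a minimum of 1 read, and Xiap had no value at its most 5′ start. The count of islands called higher was 2 of 11, against 3.31% of all islands with 50 or more reads. It was also 2 with a stricter window probability (1e-08) or no shift. No paired analysis was possible because there is 1 library per genotype, and for the same reason no replicate could be left out. Depth limits Casp12, whose 3 reads in PA1-KO and 5 in PA1-WT allow a ratio from 0.106 to 3.52.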
